A study of Rattus norvegicus with 12 samples.

Results

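Cdkn1a, Cdkn2a, Cdkn2b, Mdm2, Gdf15, Bax, Ccng1 and Sesn2 are 8 genes of the p53 response and of cell cycle arrest and cellular senescence, and they were taken by symbol from the gene tables of 2 rat models of renal fibrosis. Each of the 8 symbols had a single entry in the table of the adenine model, among 22132 entries with 20792 symbols, and a single entry in the table of the UUO model, among 32623 entries with 26976 symbols. Poly(A) RNA was sequenced from kidneys of 12 male wild-type SD rats, bought at 8 weeks of age, in 4 groups of 3. Rats of the adenine group were given adenine into the stomach daily for 3 weeks (220 mg/kg), and control rats were given saline for the same time. In the UUO group (unilateral ureteral obstruction) the left ureter had been tied at both ends, in the sham group the ureter was handled but not tied, and kidneys of both groups came 2 weeks after surgery. The question was which of these genes differed between diseased and control kidneys in each model, and whether the models differed.

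p53 is a transcription factor that accumulates when DNA damage or another stress frees it from Mdm2, a ubiquitin ligase that marks it for degradation. Its target genes include Cdkn1a (p21), which inhibits cyclin-dependent kinases and halts the cell cycle, Bax, which opens the outer mitochondrial membrane in apoptosis, and Mdm2 itself, which closes a negative feedback loop. Cdkn2a and Cdkn2b lie next to each other in the genome and encode the inhibitors p16 and p15, which hold the kinases Cdk4 and Cdk6 in check. Cdkn2a also encodes p19Arf, a protein that binds Mdm2, and one gene-level entry cannot separate its products. In the kidney, p21 and p16 are widely used as markers of tubular cells that have left the cell cycle after injury, and Gdf15 is a secreted hormone of stressed cells.

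The promoters of 3 members are shown because they stand for the outcomes in these kidneys, a rise in both models (Cdkn1a), a gene near 0 in control kidneys (Cdkn2b) and no difference past the test in either model (Ccng1). Each sequence runs 5′ to 3′ on the strand of the gene, from 250 bases before the gene's start to 50 bases from the start on, in RefSeq's GRCr8 build. The build behind the deposited values is not given in the sources used here. Capitals mark matches to the p53 half-site consensus, which is its own reverse complement, so that one search covers both strands. The windows are Cdkn1a at chr20:7150682-7150981 on the plus strand, Cdkn2b at chr5:109134806-109135105 on the minus strand and Ccng1 at chr10:25684827-25685126 on the minus strand.
Cdkn1a: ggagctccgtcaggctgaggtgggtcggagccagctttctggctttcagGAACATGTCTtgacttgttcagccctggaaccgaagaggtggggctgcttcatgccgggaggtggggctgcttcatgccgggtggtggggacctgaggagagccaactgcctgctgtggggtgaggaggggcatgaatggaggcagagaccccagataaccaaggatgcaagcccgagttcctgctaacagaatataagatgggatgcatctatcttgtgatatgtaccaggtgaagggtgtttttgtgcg
Cdkn2b: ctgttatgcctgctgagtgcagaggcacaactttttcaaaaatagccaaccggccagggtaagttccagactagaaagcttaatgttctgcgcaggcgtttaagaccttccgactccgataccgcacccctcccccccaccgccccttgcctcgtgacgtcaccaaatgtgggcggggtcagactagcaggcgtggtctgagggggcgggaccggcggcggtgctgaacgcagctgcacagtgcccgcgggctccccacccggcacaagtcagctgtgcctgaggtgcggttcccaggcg
Ccng1: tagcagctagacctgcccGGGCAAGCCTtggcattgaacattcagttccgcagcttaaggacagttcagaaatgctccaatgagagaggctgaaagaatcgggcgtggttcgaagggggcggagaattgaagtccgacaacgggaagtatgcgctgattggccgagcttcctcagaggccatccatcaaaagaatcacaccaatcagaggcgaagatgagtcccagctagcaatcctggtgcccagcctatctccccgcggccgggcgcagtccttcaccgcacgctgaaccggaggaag

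The half-site of Cdkn1a lay 201 to 192 bases before the start and has CATG at its core, and that of Ccng1 lay 232 to 223 bases before the start. Among the 7 members with a window in the RefSeq table, these were the 2 with a match, and the other 5 (Cdkn2a, Cdkn2b, Mdm2, Gdf15, Sesn2) had none within these bases, Gdf15 having 2 windows. Of all 33469 windows of the same length, 7.98% held the half-site and 2.28% held it with the core CATG. The window was short, so sites in introns or farther upstream were not searched. A match is only a run of letters, and no binding was measured in these kidneys.

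Kidney tissue was sequenced without separating its cells, so that fewer cells of a type and less RNA per cell cannot be told apart. Which part of the kidney was taken is not given in the sources used here. Markers of the kidney tubule summed to 2240 to 3420 FPKM (sequenced fragments relative to transcript length and to all mapped fragments) in control rats and 280 to 501 in adenine rats, and to 3393 to 4211 in sham rats and 237 to 378 in UUO rats. Leukocyte markers summed to 18.3 to 22.6 in control, 483 to 806 in adenine, 19.6 to 28.1 in sham and 215 to 248 in UUO rats. Of 5 urothelial markers, 5 were upregulated DEGs in the UUO model, against 13.2% of all tested entries. They summed to 72.0 to 145 in UUO rats against 0.646 to 2.67 in sham rats. Most of them reached the minimum FPKM of the test, given below, through the UUO rats alone. A high value was thus a condition of their being tested. In the adenine model none of the 2 tested passed (sums of 0.740 to 6.96 in control and 1.07 to 3.89 in adenine rats). The part of these cells in the values below was not tested. The depth behind each FPKM value is unknown, and the spread between rats gives its precision.

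Differences were tested with limma on log2(FPKM + 0.1) for entries of at least 0.5 FPKM in at least 3 of 6 rats, with Benjamini-Hochberg adjustment over all 15029 entries tested in the adenine model and all 15043 in the UUO model. A gene passed the test at an adjusted p under 0.05, and a DEG also had a log2 fold change of 2 or more in size. The log2 fold changes of all tested entries had a median of 0.30 with adenine and 0.62 with UUO, and median-of-ratios scaling brought these to 0.014 and 0.032. Values under that scaling, which are changes relative to the typical gene, are given wherever they alter a printed call. It moved the shares passing in the UUO model from 56.1% higher and 14.4% lower to 28.0% and 27.9%, and in the adenine model from 39.6% and 19.9% to 29.0% and 28.4%. Counts given under this scaling below stand beside these scaled shares.

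In the adenine model 6 of the 8 members were tested, and 2 of them, Cdkn1a and Mdm2, rose, against 39.6% of all entries. None fell, against 19.9%, and Cdkn1a was the one upregulated DEG, against 10.7%. In the UUO model 7 were tested, 4 rose (Cdkn1a, Cdkn2b, Mdm2, Bax), against 56.1%, and Gdf15 fell, against 14.4%. Cdkn1a and Cdkn2b were upregulated DEGs there, against 13.2% of all entries. Cdkn2b was tested through its UUO rats alone. A high value was thus a condition of its place in the UUO counts of this paragraph. The median log2 fold change of the tested members was 0.37 in the adenine and 0.73 in the UUO model, beside 0.30 and 0.62 for all entries. Relative to the typical gene, Cdkn1a rose and Bax fell in the adenine model, whereas Cdkn1a, Cdkn2b and Bax rose and Gdf15 and Sesn2 fell in the UUO model. Counted without any model, all 3 adenine rats lay above all 3 control rats for 2 of the 6 tested members (45.0% of all tested entries) and below them for 0 (23.0%), and all 3 UUO rats lay above the sham rats for 4 of the 7 (60.0%) and below for 1 (15.7%). Cdkn2a and Cdkn2b, not tested with adenine, and Cdkn2a, not tested with UUO, also lay above. Such a separation of 3 against 3 gives a two-sided exact permutation p of 0.1, the smallest this design allows.

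**Figure D1:**
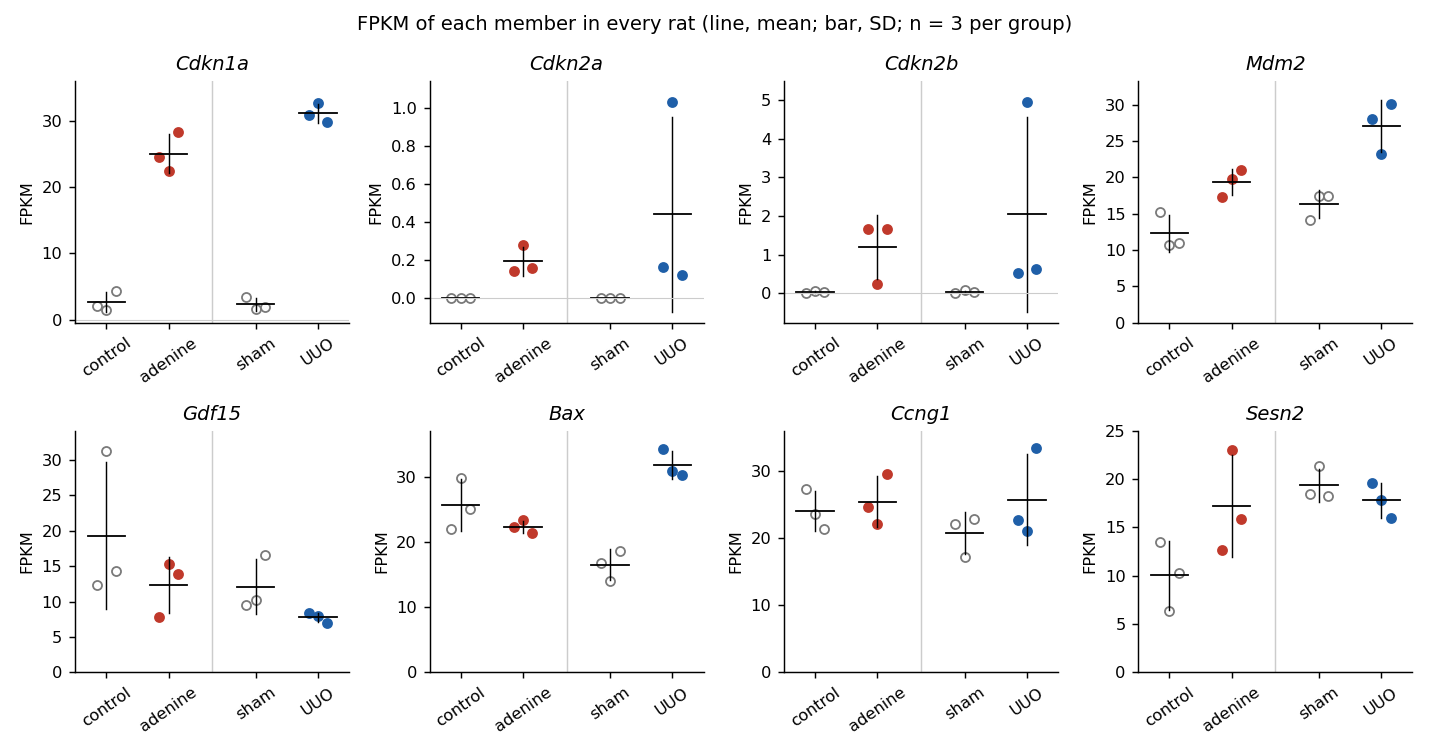
FPKM of the 8 genes in each of the 12 rats, on linear axes that differ between panels. Open circles are control and sham rats, filled circles adenine (red) and UUO (blue) rats, the horizontal line is the mean and the vertical line the SD of 3 rats. The diseased rats stand far above their controls for Cdkn1a, 1 UUO rat stands alone at 1.03 for Cdkn2a and 4.97 for Cdkn2b, and the Ccng1 groups overlap in both models.

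Mdm2, the ligase that limits p53, was at 15.2, 10.7 and 10.9 FPKM in control rats and at 17.4, 19.8 and 21.0 in adenine rats, a mean of 12.3 ± 2.53 against 19.4 ± 1.85 (SD, n = 3). In sham rats it was at 14.2, 17.4 and 17.4 and in UUO rats at 28.0, 23.2 and 30.1, a mean of 16.3 ± 1.88 against 27.1 ± 3.56. Every diseased rat lay above every control rat in both models. The rise was 0.67 on the log2 scale in the adenine model (SE 0.17, limma adjusted p = 0.0123) and 0.73 in the UUO model (SE 0.14, adjusted p = 0.00297), a 1.59-fold and a 1.65-fold difference. Relative to the typical gene the values were 0.38 (95% interval 0.020 to 0.73, adjusted p = 0.0682) and 0.13 (-0.18 to 0.44, adjusted p = 0.438), so neither call held under median-of-ratios scaling. Without the third adenine rat the adjusted p in that model was 0.0501.

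Mdm4, which blocks the activity of p53 and is the paralog of Mdm2, had log2 fold changes of 0.50 and 0.78 that passed (adjusted p = 0.0234 and 0.0209), and of 0.21 and 0.19 relative to the typical gene that did not (adjusted p = 0.228 and 0.471). Of the regulators and relatives of p53, 5 of 9 tested rose and 1 fell with adenine, against 39.6% and 19.9% of all entries. With UUO 8 of 10 rose and 0 fell, against 56.1% and 14.4%. Under median-of-ratios scaling 2 rose and 1 fell in the adenine model and 3 rose and 3 fell in the UUO model. The kinase gene Hipk2 had the highest log2 fold change in the adenine model (1.39, adjusted p = 0.00415) and the lowest in the UUO model (-0.29, adjusted p = 0.26), where relative to the typical gene it fell by 0.88 (adjusted p = 0.00875). Rchy1, a further ubiquitin ligase of p53, fell by 0.68 on the log2 scale in the adenine model (adjusted p = 0.00185). Tp63, a p53 relative expressed in basal epithelium, was highest in the UUO model at 3.23 (0.911 ± 0.112 FPKM against 0.00752 ± 0.0129, adjusted p = 0.000196), beside the urothelial marker sums given above. It reached the minimum FPKM through its UUO rats alone, so a high value was a condition of its being tested, and it was below the minimum in the adenine model.

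Cdkn1a (p21) was at 2.09, 1.49 and 4.37 FPKM in control rats and at 24.5, 22.4 and 28.3 in adenine rats. Sham rats were at 3.35, 1.60 and 1.96 and UUO rats at 30.8, 32.7 and 29.8. The lowest diseased rat was thus several times the highest control rat in each model. Its log2 fold change reached 3.32 in the adenine model (SE 0.36, 95% interval 2.46 to 4.19, limma adjusted p = 0.000397), with 543 of 15029 entries higher, and 3.76 in the UUO model (SE 0.26, 3.15 to 4.37, adjusted p = 4.21e-05), with 305 of 15043 entries higher. Over the alternatives, each rat left out included, it passed as a DEG every time, at 2.91 to 3.74 in the adenine model and at 3.12 to 4.06 in the UUO model. The changes of the models differed by 0.44 (95% interval -0.52 to 1.40), and this was not past the test (adjusted p = 0.491).

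Cdkn2a was listed at 0 in all 3 control rats and at 0.139, 0.277 and 0.157 FPKM in adenine rats. In the UUO table, whose lowest value is 0.0001, all 3 sham rats were at 0.0001 and UUO rats at 0.162, 1.03 and 0.121. Every diseased rat lay above every control rat, at levels of about 1 FPKM or less. It stayed below the minimum FPKM in both models, and no fold is given against groups listed at their table's lowest value. When every entry was tested the adjusted p was 0.0028 for adenine and 0.107 for UUO.

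Cdkn2b, its neighbour, was at 0.00843, 0.0438 and 0.0389 FPKM in control rats and at 1.67, 0.234 and 1.67 in adenine rats. It had 2 of 6 rats at the minimum FPKM and was not tested there, and with every entry tested its log2 fold change was 2.97 (adjusted p = 0.014). In sham rats it was at 0.0001, 0.0690 and 0.0202 and in UUO rats at 0.519, 4.97 and 0.636, so the second UUO rat held 4.97 of a group mean of 2.04 ± 2.54. That rat was also the one with the highest Cdkn2a. Its marker sums were 72.0 for urothelium, against 145 and 142 in the others, and 215 for leukocytes, against 248 and 228, and their part in its values was not tested. Cdkn2b passed the minimum through its UUO rats alone, so a high value was a condition of its being tested. Its log2 fold change was 3.38 (SE 0.82, adjusted p = 0.00888). With the same entries kept and the second UUO rat left out, an alternative chosen after seeing the data, it was 2.41 (SE 0.46, adjusted p = 0.00533), and the call was lost with a pseudocount of 1 (1.26, adjusted p = 0.058).

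Other genes of the G1 checkpoint moved unevenly. Of 14 tested, 7 rose and 2 fell in the adenine model, against 39.6% and 19.9% of all entries. In the UUO model 9 rose and 1 fell, against 56.1% and 14.4%. The medians were 0.49 and 0.69, beside 0.30 and 0.62 for all entries. Under median-of-ratios scaling 5 rose and 3 fell with adenine, and 4 rose and 3 fell with UUO. Of the D-type cyclins that Cdk4 and Cdk6 need, Ccnd2 was the highest of the list in both models and Ccnd1 the lowest. Ccnd2 rose from 1.10 ± 0.467 to 5.25 ± 0.797 FPKM in the adenine model and from 2.95 ± 0.731 to 11.7 ± 1.41 in the UUO model (2.22 and 1.97 on the log2 scale). Ccnd1 fell by 0.83 in the adenine model (53.3 ± 4.90 to 30.0 ± 0.982 FPKM, adjusted p = 0.000672) and by 0.55 in the UUO model (76.8 ± 15.6 to 51.8 ± 1.98, adjusted p = 0.0169).

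Genes of dividing cells were examined beside p21. Of 14 proliferation genes tested, 10 rose and 0 fell in the adenine model, against 39.6% and 19.9% of all entries. In the UUO model 11 rose and 0 fell, against 56.1% and 14.4%. Under median-of-ratios scaling 9 rose with adenine and 5 with UUO, and 0 fell. The ends of the list were Plk1, a mitotic kinase (2.14, adjusted p = 0.00109), and Pcna, the replication clamp (0.34, adjusted p = 0.0764), in the adenine model, and Mcm6, a subunit of the replicative helicase (1.99, adjusted p = 0.00012), and Cdc20, an activator of the anaphase-promoting complex (0.27, adjusted p = 0.468), in the UUO model. Lmnb1, the nuclear lamin whose loss is used as a mark of senescent cells, rose from 1.62 ± 0.158 to 7.85 ± 1.17 FPKM in the adenine model (2.20, adjusted p = 0.000115) and from 2.15 ± 0.166 to 10.9 ± 0.579 in the UUO model (2.29, adjusted p = 2.35e-05). It was the highest of 4 senescence hallmark genes in both models. Of these 2 rose with adenine and 4 with UUO, against 39.6% and 56.1%, and 2 in each under median-of-ratios scaling. Hmgb1, a chromatin protein, was lowest in the adenine model (0.084, adjusted p = 0.543), and Glb1, the gene of lysosomal beta-galactosidase, in the UUO model (0.39, adjusted p = 0.0125), where its value relative to the typical gene was -0.21 and did not pass (adjusted p = 0.177).

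Ccng1 (cyclin G1), a p53 target that recruits a phosphatase to Mdm2, was at 27.3, 23.6 and 21.3 FPKM in control rats and at 24.7, 22.0 and 29.6 in adenine rats. Sham rats were at 22.1, 17.1 and 22.9 and UUO rats at 22.7, 21.1 and 33.5. The groups overlapped in both models, and the highest UUO value came from the third rat. The log2 fold changes of 0.075 (95% interval -0.28 to 0.43, adjusted p = 0.685) and 0.29 (-0.19 to 0.78, adjusted p = 0.229) did not pass, and both were negative relative to the typical gene (-0.22 and -0.30), also without passing.

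**Figure D2:**
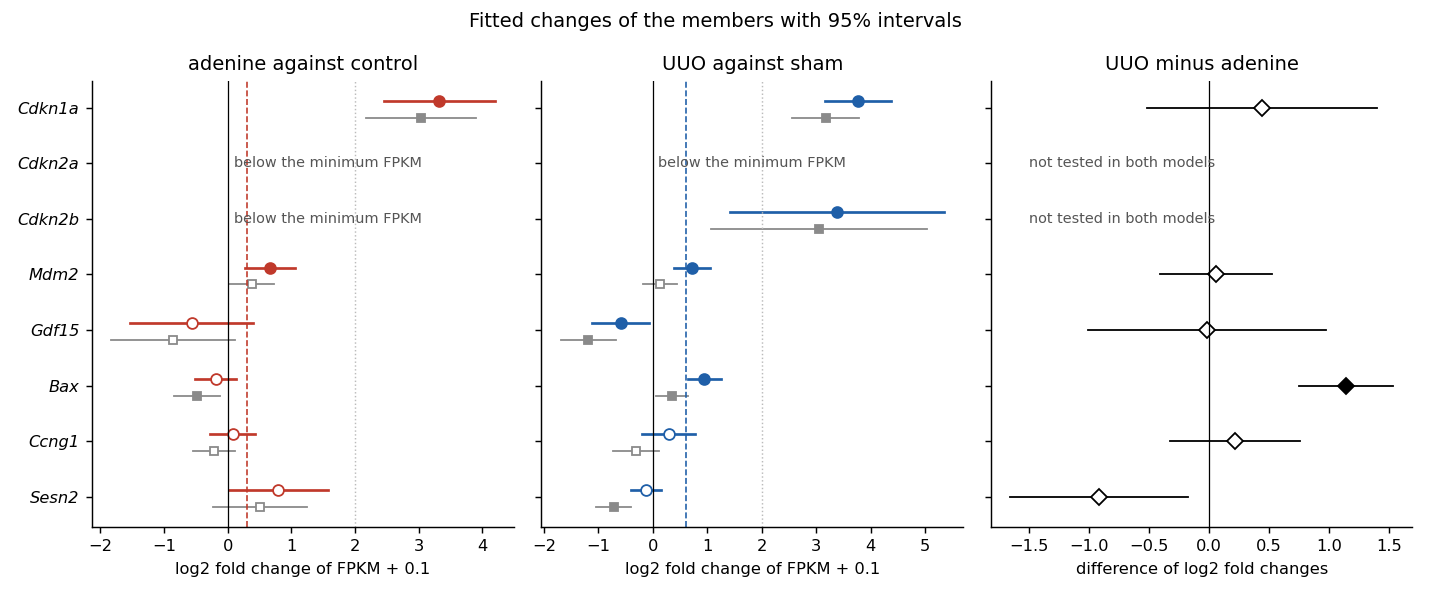
Log2 fold change of each tested gene in the adenine model (left, red circles) and the UUO model (middle, blue circles), and the difference of the changes (right, black diamonds), each with its 95% interval. Filled symbols have an adjusted p under 0.05, grey squares are the values under median-of-ratios scaling, the dashed line is the median of all tested entries and the dotted line the DEG threshold of 2. Cdkn1a lies beyond 2 in both models, and Bax is the one gene with a filled diamond, at 1.14.

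Bax, the pore-forming effector of apoptosis, was the member that set the models apart. It was at 22.0, 30.0 and 25.1 FPKM in control rats and at 22.3, 23.4 and 21.4 in adenine rats. In sham rats it was at 16.9, 14.0 and 18.7 and in UUO rats at 34.4, 30.9 and 30.4. Control and adenine rats overlapped, whereas every UUO rat lay above every sham rat. Adenine gave a log2 fold change of -0.19 (95% interval -0.51 to 0.13, adjusted p = 0.253) and UUO one of 0.95 (0.65 to 1.25, adjusted p = 0.000583). Relative to the typical gene Bax fell by 0.48 on the log2 scale in the adenine model (adjusted p = 0.0293) and rose by 0.35 in the UUO model (adjusted p = 0.045). The difference of the changes was 1.14 (SE 0.18, 95% interval 0.75 to 1.53, adjusted p = 0.00113 over 13486 symbols), and 27.0% of those symbols passed this test. It was 0.83 under median-of-ratios scaling (adjusted p = 0.0107). Its control rats, at a mean of 25.7 ± 3.99, and its sham rats, at 16.6 ± 2.35, are in tables made separately, so their levels were not compared.

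Bak1, the partner of Bax in the mitochondrial membrane, rose in both models, from 7.61 ± 0.860 to 31.5 ± 1.20 FPKM (2.04, adjusted p = 4.66e-05) and from 10.7 ± 2.23 to 47.3 ± 4.43 (2.15, adjusted p = 7.16e-05). It was the highest of 9 tested paralogs of the members in both models. Of these paralogs 5 rose with adenine and 6 with UUO, against 39.6% and 56.1% of all entries. In each model 0 fell, against 19.9% and 14.4%, and under median-of-ratios scaling 2 rose and 1 fell in each. The lowest were Bok (-0.83, adjusted p = 0.0647), a Bax relative, in the adenine model, and Cdkn1c (-0.26, adjusted p = 0.205), the kinase inhibitor p57, in the UUO model. Relative to the typical gene both fell, Bok by 1.12 (adjusted p = 0.0245) and Cdkn1c by 0.86 (adjusted p = 0.00548). In the BCL2 family 7 of 11 tested genes rose and 1 fell in the adenine model. In the UUO model 8 rose and 0 fell, beside the same shares of all entries. The family had medians of 1.27 and 1.34. A gene of the family that rose with adenine reached the minimum FPKM through the adenine rats alone. A high value was a condition of its being tested. Scaled to the typical gene, 6 rose and 3 fell in the adenine model and 6 rose and 2 fell in the UUO model. Bcl2a1, a survival protein made mostly by leukocytes, was highest, rising from 3.54 ± 1.22 to 86.4 ± 12.7 FPKM and from 3.54 ± 0.474 to 39.3 ± 5.38 (4.61 and 3.44 on the log2 scale), beside the leukocyte marker sums given above. The lowest were Bok in the adenine and Bcl2l2, a survival gene, in the UUO model (-0.037, adjusted p = 0.751), where Bcl2l2 fell by 0.64 relative to the typical gene (adjusted p = 0.00121).

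Gdf15, a hormone of stressed cells that signals appetite loss through a brainstem receptor, did not rise in either model. It was at 12.4, 31.3 and 14.3 FPKM in control rats and at 7.88, 15.3 and 13.9 in adenine rats, and at 9.50, 10.2 and 16.5 in sham rats and 8.33, 7.94 and 7.03 in UUO rats. The second control rat stood highest by far, and the adenine groups overlapped, while every UUO rat lay below every sham rat. That control rat had a podocyte marker sum of 29.7, against 136 and 189 in the other control rats. Its tubule sum was 2240, against 3420 and 2913, and its urothelial sum 6.96, against 0.740 and 1.46. The part of these cells in its Gdf15 value was not tested. On the log2 scale adenine rats differed from control rats by -0.57 (95% interval -1.53 to 0.40, adjusted p = 0.261) and UUO rats from sham rats by -0.59 (-1.11 to -0.063, adjusted p = 0.0472). Relative to the typical gene the UUO value was -1.18 (adjusted p = 0.00315). The UUO call sat at the threshold, with an adjusted p of 0.0287 to 0.124 when single rats were left out, and of those 6 fits only the one without the first sham rat kept it. Without the third sham rat, the highest, the value was -0.34 (adjusted p = 0.068). Its receptor gene Gfral had no entry in the adenine table and was at 0.0001 in all 6 rats of the UUO table, and the co-receptor gene Ret was below the minimum FPKM in both.

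Sesn2, a stress sensor that restrains mTORC1, was at 13.5, 6.33 and 10.3 FPKM in control rats and at 12.7, 23.0 and 15.9 in adenine rats. Sham rats were at 18.5, 21.4 and 18.2 and UUO rats at 19.6, 17.8 and 16.0. The groups overlapped in both models. Its log2 fold change with adenine was 0.79 (95% interval 0.020 to 1.57, adjusted p = 0.0722) and with UUO -0.12 (-0.40 to 0.15, adjusted p = 0.374). Without the first control rat it passed in the adenine model (1.04, adjusted p = 0.037), and relative to the typical gene it fell by 0.72 in the UUO model (adjusted p = 0.00397). The difference of the changes, UUO minus adenine, was -0.92 (95% interval -1.66 to -0.17, adjusted p = 0.0636) and did not pass, and under median-of-ratios scaling it was -1.22 and passed (adjusted p = 0.025).

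Sesn2 and Gdf15 are also targets of the integrated stress response, in which blocked translation raises the factor Atf4. Of the genes of this response, 4 of 13 rose and 2 fell in the adenine model, against 39.6% and 19.9% of all entries. In the UUO model 11 of 14 rose and 1 fell, against 56.1% and 14.4%. Under median-of-ratios scaling 4 rose and 4 fell with adenine, and 6 rose and 2 fell with UUO. Psat1, an enzyme of serine synthesis, was lowest in both, falling from 63.0 ± 7.55 to 13.3 ± 2.79 FPKM and from 76.3 ± 6.61 to 17.7 ± 3.01 (-2.25 and -2.12 on the log2 scale). The cystine transporter gene Slc7a11 was highest in the adenine model, rising from 0.0137 ± 0.0133 to 9.74 ± 3.83 FPKM (6.35, adjusted p = 4.66e-05), and it too was tested through its adenine rats alone. In the UUO model some genes of this list, Slc7a11 among them, reached the minimum FPKM through the UUO rats alone. A high value was a condition of their being tested, and the counts above include them. Atf3, a stress-induced transcription factor, was highest in the UUO model, where it rose to 29.8 ± 0.463 FPKM from at most 2.98 in sham rats, by 4.0 on the log2 scale (adjusted p = 6.32e-05). In the adenine model Atf3 rose as well, from 1.73 ± 0.707 to 44.3 ± 8.55 FPKM (4.65, adjusted p = 6.34e-05).

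Further p53 target genes were spread widely. Of 27 tested in the adenine model 15 rose and 3 fell, against 39.6% and 19.9% of all entries. Of 26 in the UUO model 18 rose and 0 fell, against 56.1% and 14.4%. Their medians were 0.67 and 0.71, beside 0.30 and 0.62 for all entries. Relative to the typical gene 11 rose and 3 fell in the adenine model and 10 rose and 3 fell in the UUO model. Sfn (14-3-3 sigma), an epithelial protein that arrests cells in G2, was highest in both, rising from 2.27 ± 0.135 to 23.8 ± 0.783 FPKM in the adenine model (3.33, adjusted p = 1.89e-05) and from 2.03 ± 0.568 to 74.2 ± 27.3 in the UUO model (5.10, adjusted p = 2.52e-05). Gadd45a, a growth arrest gene, was lowest in the adenine model, where it fell from 74.4 ± 26.9 to 32.6 ± 7.49 FPKM (-1.16, adjusted p = 0.0118). The lowest in the UUO model was Rrm2b, a subunit of ribonucleotide reductase (-0.55, adjusted p = 0.0743), which relative to the typical gene fell by 1.14 (adjusted p = 0.00372).

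**Figure D3:**
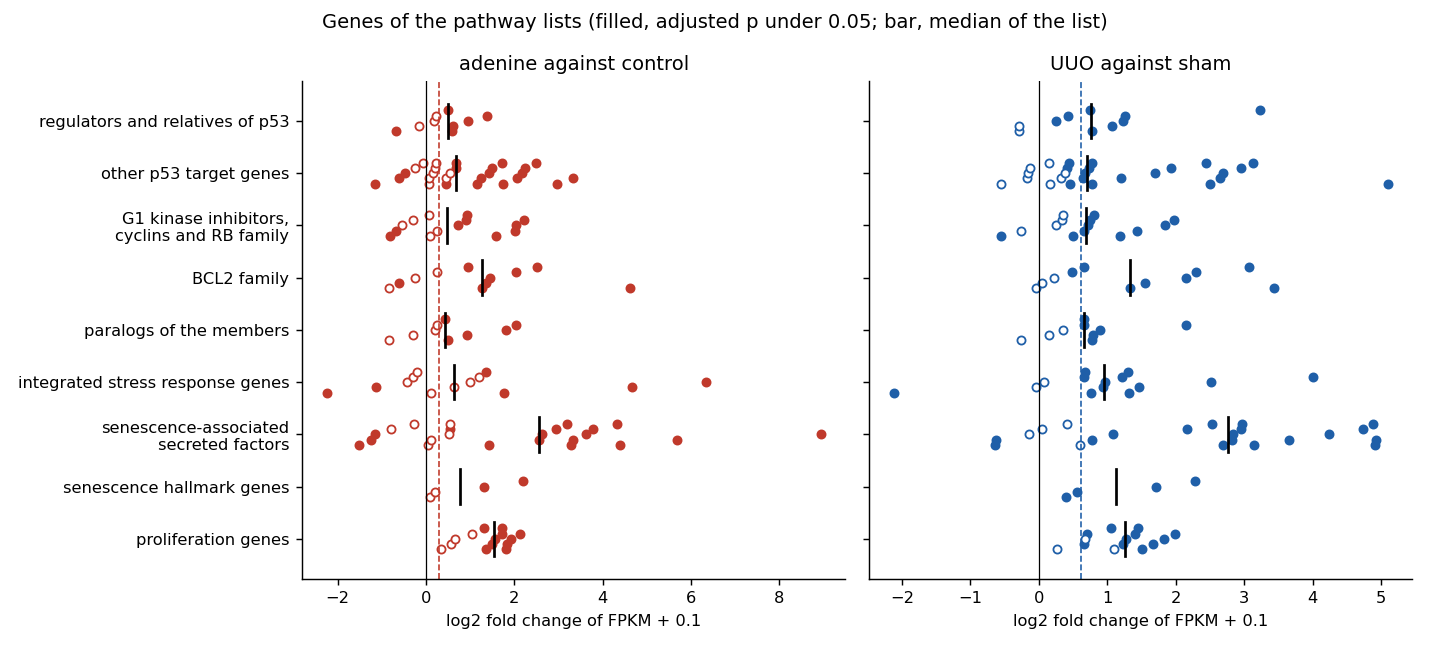
Log2 fold changes of the tested genes of each pathway list in the adenine model (left) and the UUO model (right), 1 circle per gene, filled at an adjusted p under 0.05. The black bar is the median of the list and the dashed line the median of all tested entries, 0.30 and 0.62. The bar of the secreted factors lies farthest to the right in both models, at 2.56 and 2.76. Some of these genes reached the minimum FPKM through the diseased rats alone.

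The secreted factors ascribed to senescent cells, many of which are cytokines that leukocytes and fibroblasts also make, had the highest medians of the pathway lists. In the adenine model 14 of 23 tested rose and 3 fell (median 2.56), against 39.6% and 19.9% of all entries. In the UUO model 16 of 22 rose and 2 fell (median 2.76), against 56.1% and 14.4%. Under median-of-ratios scaling 12 rose and 3 fell with adenine, and 13 rose and 3 fell with UUO. Mmp12, an elastase of macrophages, was highest in the adenine model at 211 ± 40.9 FPKM against 0.343 ± 0.151 (8.94, adjusted p = 1.89e-05), and Mmp3, a stromal protease, in the UUO model at 5.08 ± 2.27 against 0.0627 ± 0.0323 (4.93, adjusted p = 5.61e-05). Both reached the minimum FPKM through the diseased rats alone. Further cytokine genes of the list did so too in each model. A high value was a condition of their being tested, and the counts and medians of this list include them. At the other end, Igfbp2 fell by 1.51 on the log2 scale in the adenine model (adjusted p = 0.0263) and Vegfa, the vascular growth factor of tubules and podocytes, by 0.63 in the UUO model (adjusted p = 0.0125). Fibroblast markers summed to 73.1 to 110 FPKM in control and 541 to 733 in adenine rats, and to 65.2 to 96.1 in sham and 1028 to 2244 in UUO rats. These sums and those of leukocytes rose in both models, as did most secreted factors, and those of urothelium rose in the UUO model. The tubule sums fell in both models. The part of these cells in the secreted factors was not tested.

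Over the 12 rats, with each value taken from the mean of its own control or sham group, the profiles most like that of Cdkn1a among 13485 symbols were those of Arl5c, Adamts4 and Rnd1. Their root mean square differences from Cdkn1a were 0.293, 0.304 and 0.309 on the log2 scale. Arl5c had log2 fold changes of 3.59 and 3.57 in the adenine and UUO models, Adamts4 of 3.35 and 3.78, and Rnd1 of 3.18 and 4.03. For Gdf15 the nearest were Gpsm2, LOC691083 and Anapc13, at 0.300, 0.305 and 0.312.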

How the data were processed

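RNA-seq of 12 rat kidneys, 3 per group, was analysed from 2 tables in which the authors deposited FPKM per gene. The adenine model with its controls and the UUO model with its sham rats have a table each. Per the submitters' processing notes, cutadapt 1.9, HISAT2 2.0.4 and StringTie 1.3.4d were among the tools used, and by the methods reads were trimmed, mapped and merged into transcriptomes before FPKM was calculated. The genome build and annotation are not given in the sources used here. FPKM is relative within a sample and carries no counts, so a rise of a few abundant genes lowers all others and the depth is unknown. All 12 columns were used, with groups taken from the sample labels. The 3 rats of a group are separate animals.

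Values were analysed as log2(FPKM + 0.1), a scale that understates changes of low genes, for entries of at least 0.5 FPKM in at least 3 of 6 rats. Each table was fitted apart with limma 3.58.1 (lmFit, eBayes with a trend) in R 4.3.3, with Benjamini-Hochberg adjustment over all tested entries of the table, at an adjusted p under 0.05. DEGs also had a log2 fold change of 2 or more in size. To compare the models, the adenine log2 fold change was subtracted from that of UUO and divided by its standard error (from both errors squared and added), with a t distribution whose degrees of freedom were added up, and p-values were adjusted over 13486 symbols tested in both tables. Exact permutation tests were two-sided. Other steps used Python 3.11.15 with scipy 1.17.1 and pandas 2.3.3, and figures matplotlib 3.10.9. The fits were tested on simulated data.

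The members and the gene lists were chosen with earlier results of these data known. Named genes are the 8 members, Mdm4 and Lmnb1, in each list and model the tested gene with the highest and the lowest log2 fold change, and the 3 symbols nearest in profile to Cdkn1a and to Gdf15. A further gene of this rule is not reported here. Lists were described by counts and medians of symbols with 1 entry, without a set test. Of the marker lists, 1 of 3 podocyte markers fell in each model and 1 of 2 tested endothelial markers rose in each. Of 5 fibroblast markers 5 rose in each, and 0 adrenal cortex markers reached the minimum FPKM. Of all entries 19.9% fell and 39.6% rose with adenine, and 14.4% fell and 56.1% rose with UUO. Under median-of-ratios scaling 2 podocyte and 8 tubule markers fell in the UUO model. With adenine 0 endothelial and 4 fibroblast markers then rose, and the other counts stayed the same. The scaled shares of all entries were 28.4% lower and 29.0% higher with adenine, and 27.9% lower and 28.0% higher with UUO. Promoters came from RefSeq (GRCr8), and Bax had no window there. As alternatives, the pseudocount was set to 1 or 0.01, the filter dropped or raised to an FPKM of 1, the samples scaled by median-of-ratios, by quantiles or to equal sums, the trend dropped, a replicate block added, and each rat left out in turn.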

Additional observations from a re-analysis of the deposited data

Results flagged for a closer look

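Bax was singled out because its change differed between the models by a test of the difference itself. Its UUO log2 fold change minus its adenine log2 fold change was 1.14 (SE 0.18, adjusted p = 0.00113 over 13486 symbols, of which 27.0% passed), with all 3 UUO rats above all 3 sham rats and the adenine groups overlapping. Over the alternatives the difference ranged from 0.79 to 1.25 and passed every time. Groups of 3 rats were too small for a test of single outlying samples.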

How the results depend on the processing

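Over all alternatives that were run, Cdkn1a stayed a DEG in both models and Bax passed the test of the difference. With no filter, 4 members passed in the adenine model (2 of them DEGs), Cdkn2a and Cdkn2b now being tested. All 4 were higher, and in that setting 29.1% of all entries passed higher and 14.0% lower. In the UUO model 3 passed with no filter (1 DEG), all higher, against 23.8% of all entries. Gdf15 and Cdkn2b were lost there with larger standard errors (0.241 and 0.941). In the UUO model Cdkn1a was the 1 DEG at a pseudocount of 1 and at a minimum FPKM of 1, where Cdkn2b was lost or not tested. Median-of-ratios scaling and quantile normalization each gave 2 members past the test of the difference, Sesn2 joining Bax.

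Sign changes were seen only in values that did not pass. Those of Bax (adenine, 0.080) and Sesn2 (UUO, 0.10) came with equal FPKM sums, and those of Ccng1 with median-of-ratios scaling (-0.22 and -0.30) and quantile normalization (UUO, -0.13). The differences between the models turned to -0.25 and -0.20 for Mdm2 and to -0.088 and -0.14 for Ccng1 under these 2 scalings. The cause was not tested.

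With single rats left out, 1 to 3 members passed in the adenine model and 3 to 5 in the UUO model, with 1 to 2 DEGs in the UUO model and 1 to 2 members past the test of the difference. Ccng1 ranged from -0.039 to 0.17 in the adenine model, and the differences from -0.10 to 0.17 for Mdm2 and from -0.43 to 0.24 for Gdf15. Cdkn2b was not tested without any one UUO rat, since 2 of 5 rats then reached the minimum. With the same entries kept it passed each time, at 2.41 to 3.93, an alternative chosen after seeing the data.

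The replicate numbers were checked for a pairing of the rats, and the main fits used none. Deviations of same-numbered rats correlated at -0.12 to -0.049 in the adenine model, against -0.044 to 0.11 for differently numbered rats. In the UUO model they correlated at 0.050 to 0.11, against -0.078 to 0.016. Whether the UUO and sham rats were paired is thus not settled. A replicate block left 2 members passing with adenine and 4 with UUO, where Gdf15 was lost (adjusted p = 0.0775). Without read counts, no detection limit can be set for Cdkn2a and Cdkn2b.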
